A study of Mus musculus with 16 samples.

Results

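Ctse encodes cathepsin E, an intracellular aspartic protease of the pepsin family. It was followed here across sorted mouse bone marrow cells of different age and type. All probe sets that the platform annotation assigns to Ctse were taken, which gave 2 of 45101 probe sets (1418989_at and 1427797_s_at), for 1 of 18194 genes that have a probe set with a single gene symbol. Ctse was chosen by its intensities on these same arrays, which differed between young and older stem cells. Its differences between young stem cells and the other groups are therefore given as a description, without a test. Tests are given for mutator against wild type at 32 weeks and between the lymphoid progenitor fractions. The choice did not use these differences, but it did use the levels of the groups in them. The tests are therefore not independent of the choice.

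The study measured RNA from hematopoietic stem cells (HSC) and common lymphoid progenitors (CLP) on 16 Affymetrix arrays. HSC are the cells that renew themselves and give rise to all blood lineages, and CLP are early progenitors of the lymphoid lineages. All mice are labelled C57Bl6 and female, and replicates are labelled biological. Young HSC came from wild type mice of 9 to 12 weeks and old HSC from wild type mice of 24 months, with 3 arrays each. A further 3 arrays hold HSC from 32-week mice of genotype Polgtm1Lrsn+/+, called 32-week wild type here, and 3 hold HSC from 32-week mice of genotype Polgtm1Lrsn-/-, called mutator. Polg encodes the catalytic subunit of the mitochondrial DNA polymerase, and mutator mice carry a form that lacks proofreading and so accumulate mitochondrial DNA mutations. The CLP came from wild type mice of 8 to 12 weeks and were sorted as Ly6D+ (2 arrays) or Ly6D- (2 arrays); Ly6D is a surface protein that marks CLP biased towards the B lineage. Each cRNA was made from 4000 to 7000 cells. The surface markers of the HSC sort and any pooling of mice are not stated in the labels. Where samples were not separate animals, the spread between arrays may be technical.

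Cathepsin E is made as an inactive precursor and cleaves proteins in the acidic compartments of the cell, mainly in endosomes. It is known from gastric epithelium, red blood cell membranes and antigen-presenting cells, where it takes part in processing proteins for presentation on MHC class II. Its closest relative with a general role is cathepsin D, the main aspartic protease of lysosomes. HSC accumulate in number with age and shift their output towards myeloid cells and platelets.

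The labelled cell types were checked on their markers. Of the listed HSC markers, 10 had a probe set, and 9 to 10 of them lay above the 40th percentile of their array on every HSC array, against 6 to 8 on the CLP arrays. The 6 CLP markers were all above it on the CLP arrays. Against young HSC, limma called 4 of the 10 HSC markers lower in 32-week wild type and 3 in mutator HSC (adjusted p under 0.05). Of all genes, 17.7% and 12.7% were called lower there. In old HSC 3 of the 10 were called higher, beside 1.07% of all genes. Kit averaged 3193 in young, 1024 in 32-week wild type, 1471 in mutator and 4188 in old HSC. Ly6d averaged 1442 ± 447 (SD, n = 2) in Ly6D+ CLP and 38.8 ± 22.4 (SD, n = 2) in Ly6D- CLP. Polg averaged 143 ± 26.4 in 32-week wild type and 100.3 ± 30.6 in mutator HSC (SD, n = 3), although the mutator allele alters coding bases, so its array level does not check the genotype. Xist, which is transcribed from the inactive X chromosome of females, was 9.12 in 32-week wild type replicate 3 and 9.22 to 16.8 in CLP, and the Y-linked Eif2s3y was 552 and 423 to 758 there. These 5 arrays go against the labelled sex, and all other arrays had Xist at 3507 or more. Young replicates 2 and 3 were more alike than any other pair of replicates, with a median absolute log2 difference of 0.0730 against 0.0892 to 0.302.

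Labelling controls and 3′ to 5′ ratios also differed between groups. Poly(A) labelling control transcripts of bacterial genes (dap, lys, phe and thr) are spiked into each RNA before labelling, and the mean log2 level of their 8 probe sets was 9.68 to 10.14 on young arrays and 9.65 to 10.71 on old arrays. It was 12.58 to 13.72 on 32-week wild type arrays, 12.50 to 13.84 on mutator arrays and 12.69 to 13.34 on CLP arrays. The log2 ratio of the 3′ to the 5′ actin probe set, which grows as RNA or cRNA is shorter, was 2.19 to 2.60 on young and old arrays and 4.20 to 5.19 on 32-week arrays. Among HSC arrays, the 18 probe sets of the hybridisation controls stood apart on replicate 1 of 32-week wild type and replicate 1 of mutator, at 12.6 and 12.8 on the log2 scale, near the 12.8 to 13.1 of the CLP arrays.

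Ctse was low in young HSC and high in HSC of every older group. With probe set 1418989_at, the intensity was 326, 360.0 and 333 on the young arrays. It was 2871, 5538 and 5287 on the 32-week wild type arrays and 3801, 5026 and 6151 on the mutator arrays. Old HSC had 4258, 4890.1 and 4531. All 9 older arrays lay above all 3 young arrays, and the old arrays fell inside the range of each 32-week group. Ly6D+ CLP had 364 and 342, within or just above the young range. Ly6D- CLP had 500.5 and 506, above both the young and the Ly6D+ arrays but far under every older HSC array.

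Group means (± SD) were 339.9 ± 17.7 in young, 4565 ± 1473 in 32-week wild type, 4993 ± 1175 in mutator and 4559.8 ± 317 in old HSC (n = 3 each). Those of CLP were 353 ± 15.3 in Ly6D+ and 503 ± 4.27 in Ly6D- cells (n = 2 each). On the scale log2(intensity + 16), the mean of old HSC was 3.68 above young, that of 32-week wild type 3.63 and that of mutator 3.79, or 12.8-fold, 12.4-fold and 13.8-fold. The lowest array of each older group was 11.8, 7.98 and 10.6 times the highest young array, in the same order. These increases shared the same young arrays and were the reason for choosing the gene. Without 32-week wild type replicate 3, whose sex-linked transcripts go against its label, the wild type difference was 3.49. Among 13493 genes compared, the increase ranked 1 in 32-week wild type, 1 in mutator and 5 in old HSC. In order of level the groups were young, Ly6D+ CLP, Ly6D- CLP and then the older HSC groups. Young and Ly6D+ CLP overlapped (difference 0.05), and the older HSC groups overlapped each other, with old differing from 32-week wild type by 0.06 and from mutator by -0.11. Ly6D- CLP differed from young HSC by 0.55 without overlap. In bulk RNA of this kind, fewer cells that contain Ctse and less Ctse RNA per cell cannot be told apart.

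**Figure D1:**
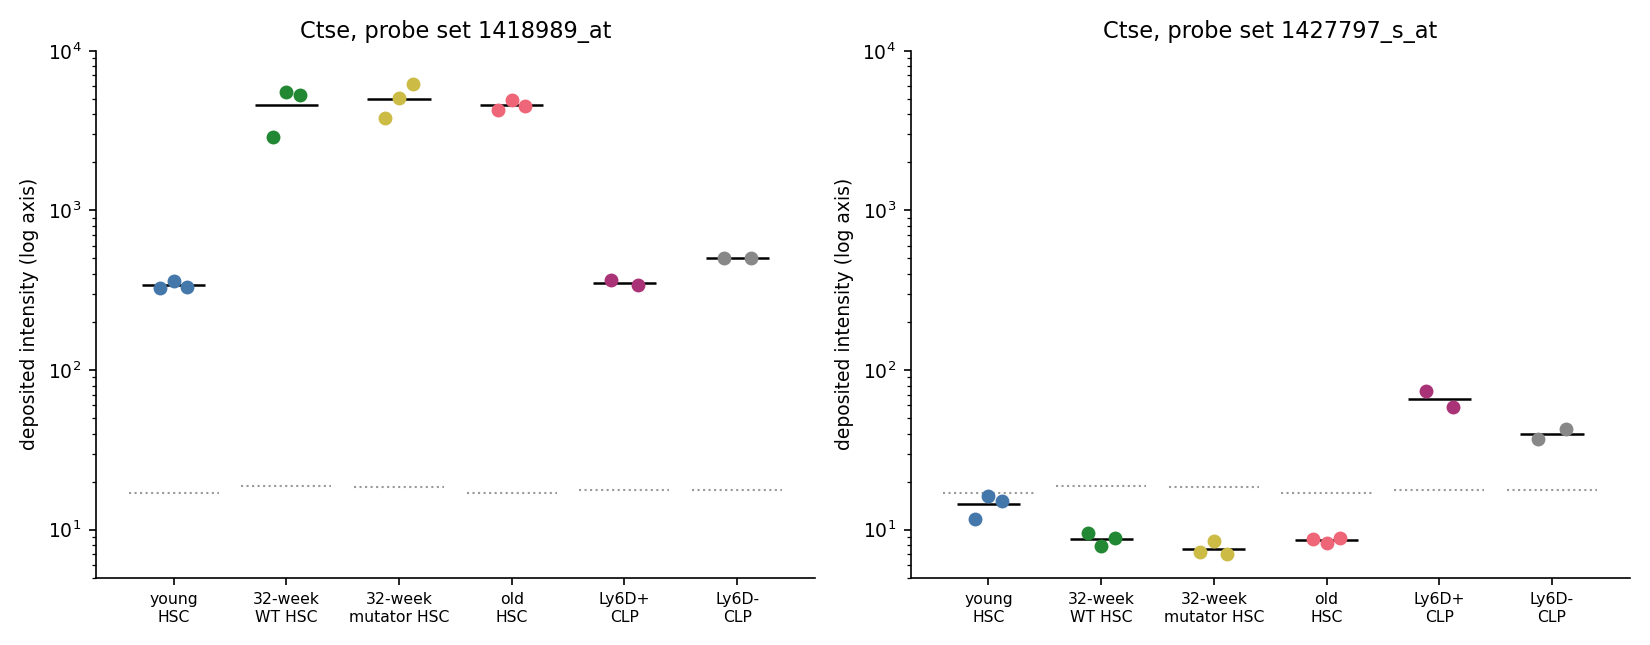
Intensity of the 2 Ctse probe sets on each of the 16 arrays by group (log axis); points are arrays, black lines are group means, and the dotted line is the mean 40th percentile of the arrays. With 1418989_at, the 9 arrays of 32-week and old HSC lie between 2871 and 6151 and the young and CLP arrays between 326 and 506.

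The same intensities were also ranked within each array, which restates the step from young to older HSC and is no further support. Ctse lay above 85.2% to 86.1% of all probe sets on the young arrays, above 98.9% to 99.5% on the 32-week arrays and above 99.1% to 99.3% on the old arrays. On CLP arrays it lay above 86.2% to 90.4% of them.

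The labelling controls moved with the 32-week groups but not with the old group. Against young HSC their mean log2 level was 0.16 higher on old arrays, 3.13 higher on 32-week wild type arrays and 3.22 higher on mutator arrays. It was 2.86 higher in Ly6D+ and 3.25 higher in Ly6D- CLP. So the old arrays had low controls and high Ctse, and the CLP arrays had high controls and low Ctse. Expressed relative to the controls, Ctse differed from young HSC by 3.52 in old, 0.50 in 32-week wild type and 0.57 in mutator HSC. On that scale replicate 1 of 32-week wild type (-2.23) and of mutator (-1.94) lay below all young arrays (-1.72 to -1.23). Each 32-week group therefore overlapped young HSC there. In Ly6D+ and Ly6D- CLP Ctse differed from young HSC by -2.81 and -2.70 on that scale. The scaling moved the median of all genes to -0.17, -3.17 and -3.27 in the older HSC groups, and relative to that median Ctse stood 3.69, 3.66 and 3.83 higher. In CLP it moved that median to -2.85 and -3.25, and Ctse stood 0.04 and 0.55 above it. The scaling shifts Ctse and that median by the same amount. These distances are therefore the same on the deposited scale and are no further support. Such a shift would turn any increase under 3.13 in wild type or 3.22 in mutator below 0, so the changes of other genes are given on the deposited scale. Relative to the 3′ actin probe set, the Ctse differences were 3.87 in old, 3.40 in 32-week wild type and 3.80 in mutator HSC. Within the 32-week groups, the arrays with the highest controls (replicate 1 of each genotype) had the lowest Ctse of their group. The part of RNA handling in the 32-week levels was not tested beyond these values.

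**Figure D2:**
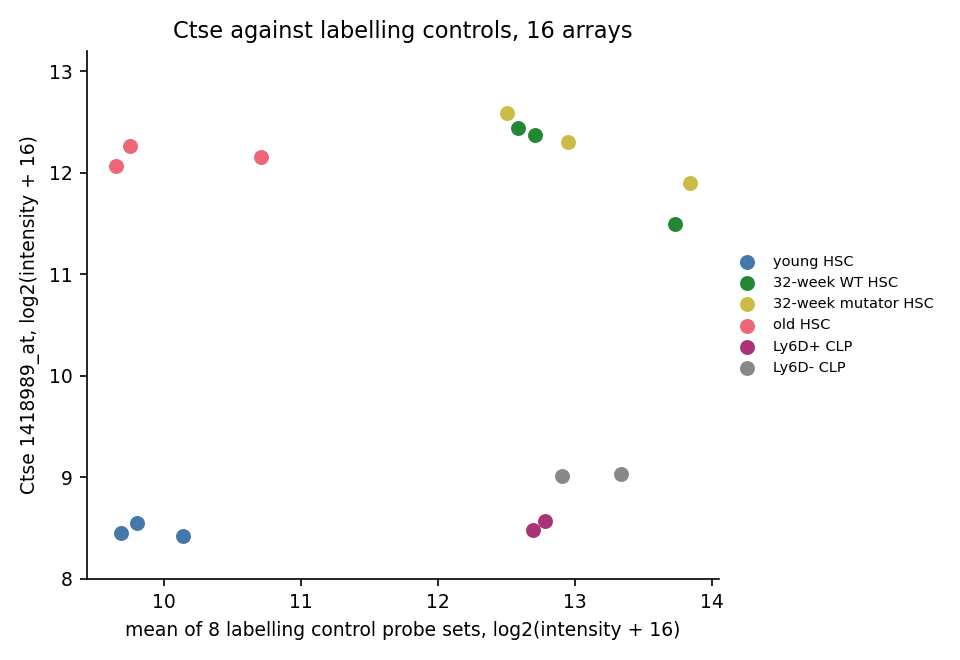
Ctse (1418989_at) against the mean of the 8 labelling control probe sets on each of the 16 arrays, both as log2(intensity + 16). Old arrays combine low controls with high Ctse, CLP arrays high controls with low Ctse, and the 32-week arrays are high in both.

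The second probe set, 1427797_s_at, was at background in HSC. It read 11.7, 16.3 and 15.2 on the young arrays, 9.47, 7.87 and 8.87 on the 32-week wild type arrays, 7.22, 8.45 and 7.04 on the mutator arrays and 8.80, 8.20 and 8.84 on the old arrays. These values were all below the 40th percentile of the array, which lay between 16.6 and 21.3, so they give no difference between HSC groups. It read 73.7 and 58.4 in Ly6D+ CLP and 36.8 and 42.9 in Ly6D- CLP, above that percentile on all 4 arrays. The suffix _s_at marks probes that can match more than a single transcript, and what this probe set detects in CLP was not tested. Unless stated otherwise, Ctse below means probe set 1418989_at.

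The comparison of mutator with wild type at 32 weeks asks whether mitochondrial mutations add to the level reached at that age. The difference between these groups was not used to choose Ctse, but the level of each was. The test is therefore not independent of the choice. The Ctse arrays of the groups overlapped, and the mean of mutator was 0.16 ± 0.246 (log2 difference ± SE, n = 3 each) above that of wild type. The 95% confidence interval ran from -0.38 to 0.70, and limma's adjusted p over 13493 genes was 0.943. This interval leaves room for differences of either sign that are small beside the step from young HSC. Between the arrays with high hybridisation controls the difference was 0.40 (3801 against 2871, 1 array each), and between the remaining arrays it was 0.04 (5589 against 5413, means of 2). It turned to -0.14 without 32-week wild type replicate 1 and to -0.0035 without mutator replicate 3, and the adjusted p ranged from 0.576 to 0.99987 over the alternatives. In this comparison limma called 0 of 13493 genes, with 977 at an unadjusted p under 0.05; 220 genes were called without 32-week wild type replicate 2.

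Ctse in CLP was set against the Ly6D sort. Ly6D+ CLP were lower than Ly6D- CLP by -0.49 ± 0.280 (log2 difference ± SE, n = 2 each), with an interval from -1.10 to 0.11 and an adjusted p of 0.515 over 14344 genes (limma). The arrays did not overlap, but the difference did not pass the test. The dim probe set differed in the opposite direction, by 0.55 ± 0.104, with an adjusted p of 0.0211 over 34958 probe sets. The mean of both probe sets differed by 0.03 (adjusted p = 0.982). The direction of Ctse between the CLP fractions therefore depended on the probe set.

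Among the pepsin-like aspartic proteases, no relative of Ctse passed the test in old HSC. Of the 10 listed genes 9 had a probe set, and 7 besides Ctse were bright enough to test: Ctsd, Napsa, Bace1, Bace2, Pgc, Pga5 and Asprv1. In old against young HSC limma called 0 of these 7, with 1 at an unadjusted p under 0.05, where 1.33% of all 13493 genes were called, 1.07% higher and 0.259% lower. Ctsd, the lysosomal protease nearest to Ctse in role, averaged 913 ± 167 in old and 835 ± 41.2 in young HSC (difference 0.11 ± 0.227 SE, adjusted p = 0.9996). Bace1, the membrane-bound β-secretase, differed by 0.74 (adjusted p = 0.544), and Napsa, the aspartic protease napsin A, by 0.05 (adjusted p = 0.9996).

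At 32 weeks 2 of these 7 relatives passed the test in either genotype, 1 in each direction. Against young HSC 24.2% of all genes were called in 32-week wild type, 6.51% higher and 17.7% lower, and 17.2% in mutator, 4.51% higher and 12.7% lower, so calls were common in these comparisons. Bace1 rose by 1.96 ± 0.337 in wild type (adjusted p = 0.00223) and by 1.61 ± 0.337 in mutator (adjusted p = 0.00884), from 135, 171 and 158 on the young arrays to 607, 424 and 1033 and to 677, 548 and 340.4. Its groups did not overlap, and both calls held when any single array was left out. The 3 other Bace1 probe sets differed from young by 0.23, 0.33 and -0.02 in wild type, so the rise rests on 1455826_a_at. The probe sets of Napsa disagreed. The one tested, 1423590_at, differed by -0.06 in wild type and -0.52 in mutator without passing. The other, 1430744_at, was above the 40th percentile on all 16 arrays and differed by 1.32 and 1.04. Ctsd fell by 0.74 in wild type (adjusted p = 0.0342) and by 0.82 in mutator (adjusted p = 0.0295), opposite to Ctse. Its call was lost in 4 of 6 fits that left out an array in wild type, among them those without any of the 3 young arrays or without wild type replicate 1, and in 5 of 6 in mutator, those without any young array or mutator replicate 1 or 2. The median of the 7 was 0.18 in wild type and -0.02 in mutator, against -0.04 and -0.05 over all genes. Mutator against wild type gave 0 calls among them by limma, and 0 at an unadjusted p under 0.05.

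In CLP the aspartic protease that passed was Napsa. It averaged 1151 ± 371 in Ly6D+ and 1096 ± 24.6 in Ly6D- CLP (SD, n = 2), against 388 ± 9.04 in young HSC. Its differences were 1.495 (adjusted p = 0.0419) and 1.463 (adjusted p = 0.0462), and both calls were lost in each of 5 fits that left out an array of the groups compared. Among all 14344 genes, 24.3% were called in Ly6D+ CLP, 10.4% higher and 13.9% lower, and 24.4% in Ly6D- CLP, 9.55% higher and 14.9% lower. Between the CLP fractions, where 2.68% of genes were called, 1.49% higher in Ly6D+ and 1.19% lower, limma called 0 of the 7, with 0 at an unadjusted p under 0.05.

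The cysteine and serine cathepsins, which act beside Ctse in endosomes and lysosomes, had no call in old HSC in the 12-array fit, where 1.33% of all genes were called. In 32-week wild type HSC 6 of 12 fell, where 17.7% of all genes were called lower. In old against young, 0 of 12 tested members were called by limma (3 at an unadjusted p under 0.05), with a median difference of 0.18. Ctsw, a cathepsin of cytotoxic lymphocytes, differed by 1.11 (adjusted p = 0.0875) and Ctss, a cathepsin of antigen-presenting cells that trims the class II invariant chain, by -1.71 (adjusted p = 0.216). A fit of the old and young arrays alone called Ctsl, Ctso and Ctsw higher and Ctss lower. That fit called 993 of all genes, against 180 in the 12-array fit. In 32-week wild type 1 also rose, and the median of the 12 was -0.67. Ctsw rose by 0.88 (adjusted p = 0.0361), and Ctsl, a lysosomal endopeptidase, fell by 1.26 (adjusted p = 0.0129). Ctss fell by 2.01 and Ctsz, a carboxypeptidase, fell by 2.65. Ctsc, Ctsf and Ctsh were the other members that fell. The call of Ctsl held in all 6 fits without an array but was lost with the mean of its probe sets. The other 6 calls were lost in 3 to 5 of the 6 fits: those of Ctss, Ctsf, Ctsz and Ctsw without any of the 3 young arrays, that of Ctsc without young replicate 2 or 3 and that of Ctsh without young replicate 1 or 2. Wild type replicate 1 also decided the calls of Ctsf, Ctsh and Ctsz, replicate 3 that of Ctsc, and replicates 2 and 3 that of Ctsw. Second probe sets differed for Ctsl (0.20), Ctsf (0.32) and Ctsh (0.09), while the 3 of Ctsz ran from -2.65 to -1.35. Ctsa, Ctsb and Ctsk did not pass in wild type, with differences of -0.17, 0.03 and -0.47. The other probe sets of Ctsb ran from -1.82 to 0.38 in wild type and from -1.38 to 0.39 in mutator, so its result depended on the probe set.

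In mutator against young HSC 2 of 12 cathepsins fell, near the 12.7% of all genes called lower: Ctsh fell by 1.46 (adjusted p = 0.0297) and Ctsz fell by 2.69 (adjusted p = 0.0366), with a median of -0.58 over the 12. Each call was lost in 5 of 6 fits without an array, all but that without mutator replicate 3. Mutator against wild type gave 0 calls by limma, with 2 at an unadjusted p under 0.05, which were Ctsc (0.67, adjusted p = 0.567) and Ctsw (-0.66, adjusted p = 0.656). In Ly6D+ CLP against young HSC 2 of 13 rose (Ctsw and Lgmn, an asparagine-specific endopeptidase) and 3 fell, and in Ly6D- CLP 2 rose (Ctsw and Ctsg, a granule protease of myeloid cells) and 4 fell, beside 10.4% and 13.9% of all genes in Ly6D+ and 9.55% and 14.9% in Ly6D- CLP. Lgmn was the only cathepsin list member called between the CLP fractions, higher in Ly6D+ by 1.54 (adjusted p = 0.0260), where 1.49% of all genes were, and the call was lost without Ly6D+ replicate 1 or without Ly6D- replicate 1.

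**Figure D3:**
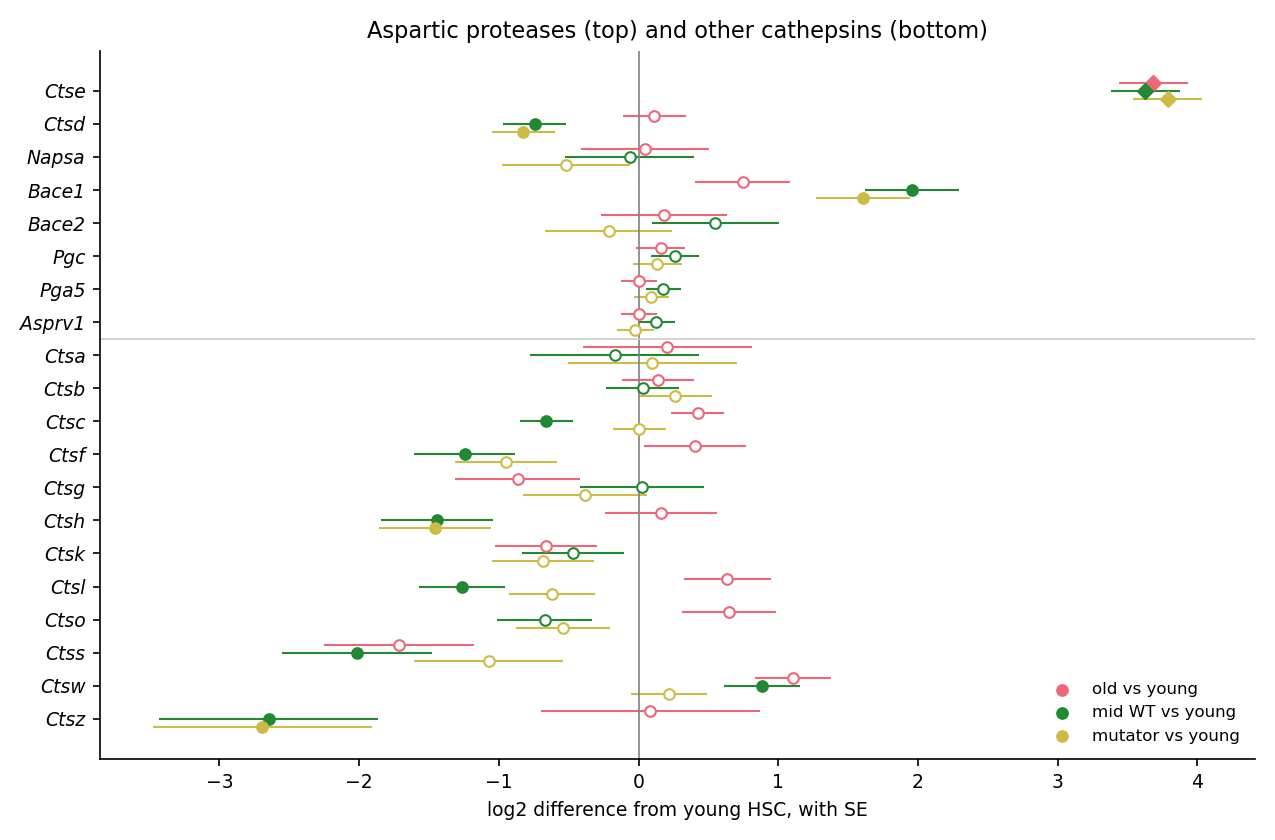
Log2 difference from young HSC (± SE) of the 8 aspartic proteases and 12 cathepsins tested, in old, 32-week wild type and mutator HSC. Filled points passed the test, open points did not, and the diamond is Ctse, which was not tested there; Ctse stands at 3.68, 3.63 and 3.79, above every other gene shown.

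Genes of the lysosome and of cathepsin control were described in the same way. Of the inhibitors of cathepsins, 16 were listed and 6 tested, and limma called 0 in old against young HSC (2 at an unadjusted p under 0.05). Of all genes 1.33% were called in that comparison, so 0 calls in a list of this size are near that share. Serpinb6a, an intracellular serpin, had the smallest p there, with a difference of 1.01 and an adjusted p of 0.0520. A fit of the old and young arrays alone called Serpinb6a and Cstb. At 32 weeks 3 of the 6 fell in wild type and 1 in mutator, where 17.7% and 12.7% of all genes were called lower, so the count in mutator is near that of all genes. Serpinb9, the inhibitor of granzyme B, fell by 1.15 in wild type (adjusted p = 0.0252) and fell by 1.13 in mutator (adjusted p = 0.0353). The Serpinb9 calls were lost without any of the 3 young arrays and, in mutator, also without mutator replicate 1 or 2. In each CLP fraction against young HSC 2 of 7 tested inhibitors rose and 2 fell, where 10.4% of all genes were called higher and 13.9% lower in Ly6D+ and 9.55% and 14.9% in Ly6D- CLP. Cst7, a cystatin-type inhibitor, rose by 4.07 in Ly6D+ and by 4.49 in Ly6D- CLP, and Serpinb1a by 1.08 and 1.11. Serpinb9 fell by 2.57 in Ly6D+ and fell by 1.79 in Ly6D- CLP, and Serpinb6a fell by 2.29 and fell by 1.77. Among 5 fits that left out an array, the Serpinb1a call was lost in 5 in Ly6D+ and 4 in Ly6D- CLP, and that of Serpinb9 in 4 in Ly6D- CLP.

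Of 28 tested genes of lysosome structure and sorting, limma called 0 in old against young HSC (2 at an unadjusted p under 0.05), with a median of 0.09. This count is near the 1.33% of all genes called there. A fit of the old and young arrays alone called Lamp2. At 32 weeks 1 rose and 8 fell in wild type, with a median of -0.48, and in mutator also 1 rose and 8 fell, with a median of -0.33. Of all genes, 6.51% were called higher and 17.7% lower in wild type, and 4.51% and 12.7% in mutator. Psap, the precursor of the saposins, fell by 1.95 in wild type and fell by 2.05 in mutator, and Laptm4a, a lysosomal membrane protein, fell by 1.35 and fell by 1.43. Atp6v1h, a subunit of the proton pump that acidifies lysosomes, fell by 2.98 and fell by 2.40, and Hexa, a β-hexosaminidase subunit, fell by 1.22 and fell by 1.07. The calls of these 4 genes held when any array was left out, and those of Atp6v1h were lost with the mean of its probe sets. Gaa, the acid α-glucosidase, rose by 0.99 in wild type (adjusted p = 0.00696) and 0.79 in mutator (adjusted p = 0.0290), the latter lost in 5 of 6 fits without an array (all but that without mutator replicate 3), and both lost with the mean of its probe sets.

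MHC class II genes encode products that present the peptides that endosomal proteases generate. In old against young HSC limma called 0 of 10 tested (2 at an unadjusted p under 0.05), near the 1.33% of all genes called. At 32 weeks 2 of the 10 rose in wild type and 1 in mutator, where 6.51% and 4.51% of all genes were called higher, and 0 fell. H2-Aa, a class II α chain, rose by 1.19 in 32-week wild type (adjusted p = 0.00146) and by 1.10 in mutator (adjusted p = 0.00331), and both calls held without any single array. Cd74, the invariant chain, rose by 0.68 in wild type (adjusted p = 0.0182), a call lost in 3 of 6 fits, those without young replicate 1 or 2 or wild type replicate 3. The median of the 10 was 0.04 in wild type and -0.12 in mutator, near that of all genes.

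Genes known to rise in aged HSC were set beside the 32-week level of Ctse. The list was written with results of these data known, so its direction in old HSC is no independent evidence. Of 37 tested members, 25 rose and 0 fell in old against young HSC, with a median difference of 2.16 against -0.01 over all genes, of which 1.07% were called higher. In 32-week wild type 10 rose and 1 fell (median 0.41), and in mutator 9 rose and 2 fell (median 0.36). Of all genes 6.51% were called higher and 17.7% lower in wild type, and 4.51% and 12.7% in mutator. These medians are smaller than the 3.63 and 3.79 of Ctse. Since Ctse was chosen for its rise and ranked 1 among all genes at 32 weeks, that order was fixed in advance.

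For most of the 8 members with the largest change in old HSC, the 32-week means lay nearer to young than to old. Tdrd9, a helicase of the piRNA pathway, read 43.3, 24.8 and 29.2 in young, 23.7, 54.6 and 54.5 in 32-week wild type and 21.6, 26.2 and 65.1 in mutator HSC. Old HSC had 752, 789 and 512. The 32-week arrays overlapped the young ones and lay far under the old ones, unlike those of Ctse. Cxcr4, the receptor that holds HSC in the marrow, came closest to Ctse, with 198, 167 and 159 in young, 1736, 769 and 869 in 32-week wild type and 2594, 1184 and 757 in mutator HSC. Old HSC had 2057, 2043 and 1653. All 32-week arrays lay above the young ones, and 1 of them, mutator replicate 1, above all old ones. Cxcr4 rose by 3.34 in old, 2.49 in wild type (adjusted p = 0.00153) and 2.82 in mutator HSC (adjusted p = 0.00137).

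The remaining 6 members were further from old HSC at 32 weeks. Clca3a1, of the chloride channel accessory family, rose by 3.26 in old, 1.13 in 32-week wild type and 1.71 in mutator HSC. Its call in wild type was lost without young replicate 1 or without wild type replicate 3. Sbspon, which encodes a protein with somatomedin B and thrombospondin domains, rose by 4.51 in old and by 1.32 in wild type HSC, a call lost in 5 of 6 fits without an array (all but that without wild type replicate 1), and differed by 0.76 in mutator HSC without passing. Eya4, a transcriptional coactivator, rose by 3.93 in old and by 1.35 in mutator HSC, a call lost in each of 6 fits. Plscr2, Fap and Wwtr1 rose by 3.69, 3.59 and 3.35 in old HSC and differed by 0.49, 0.78 and 0.68 in wild type and by 1.03, 0.62 and 0.76 in mutator, where none passed. The call of Fap in old HSC was lost without old replicate 1 or without young replicate 1.

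**Figure D4:**
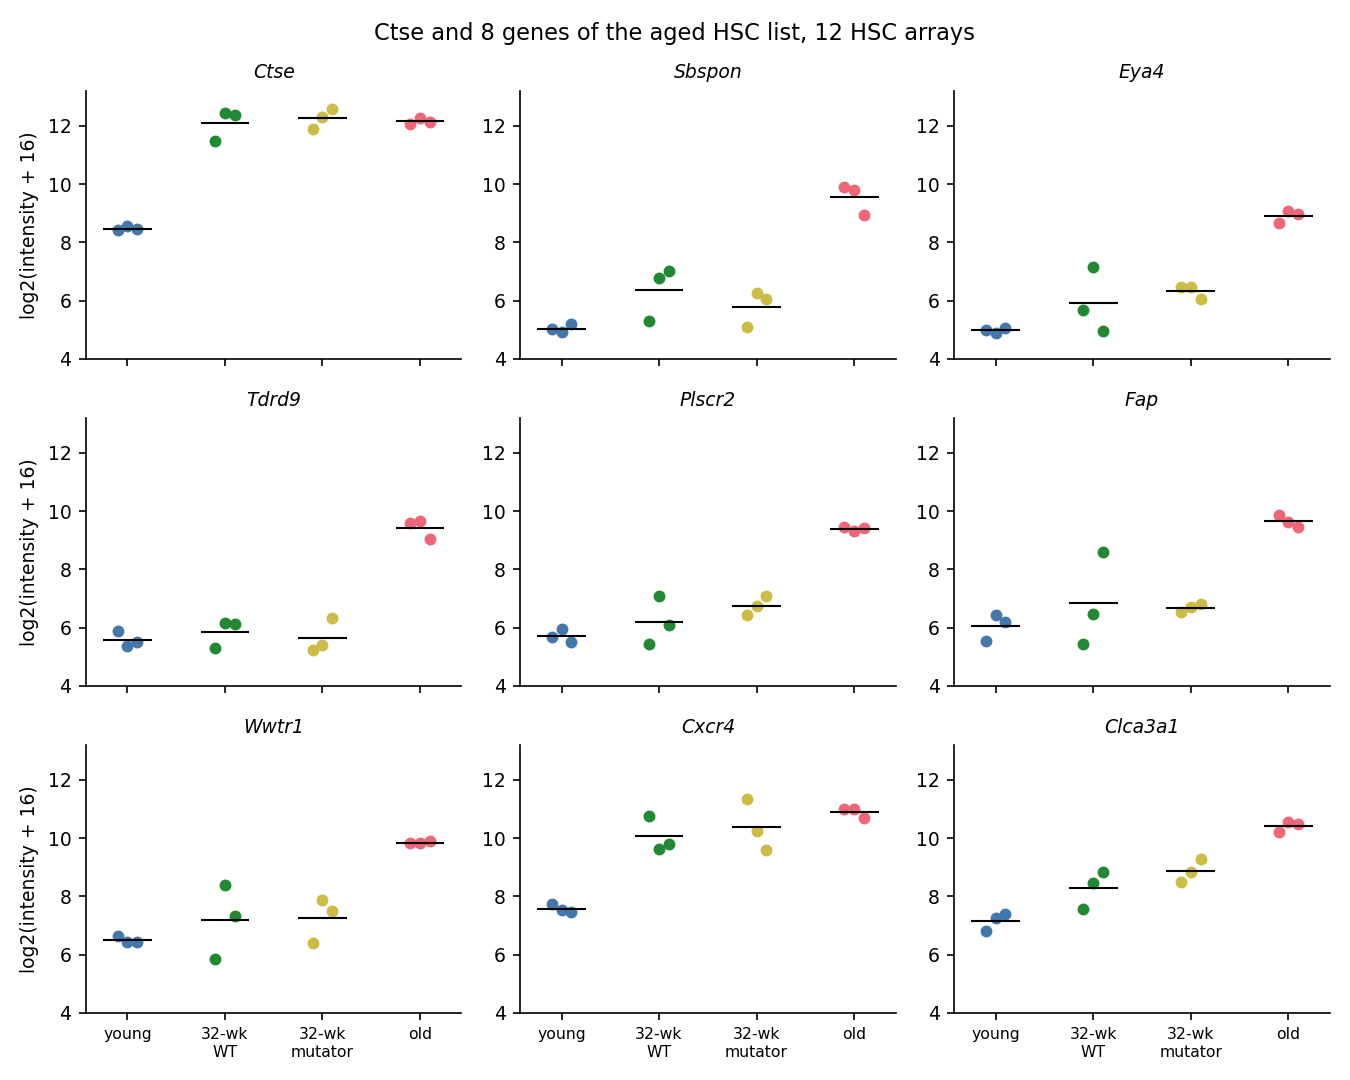
Intensity of Ctse and of the 8 listed aged HSC genes with the largest old minus young difference on the 12 HSC arrays (log axis), by group. For Ctse the 32-week arrays (2871 to 6151) span the old arrays (4258 to 4890.1), while for Tdrd9 they stay at 21.6 to 65.1 against 512 to 789.

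The genes whose pattern was most like that of Ctse were ranked by Pearson's r on the log2 scale over the 12 HSC arrays. Since the young arrays form a cluster apart from the 9 older ones for Ctse, and all values share arrays and their RNA handling, r mainly reads that step and is a description. Of 13492 other genes, 7 had r of 0.9 or more and 3 had -0.9 or less. The highest were Mtfr1l, a mitochondrial fission regulator-like gene (0.941), Cdcp1, a membrane protein with CUB domains (0.928), Zfp932, a zinc finger gene (0.919), and Nupr1, a stress-induced nuclear protein (0.912). Tnfaip2 (0.907), the deubiquitinase Mindy1 (0.904), Mpzl1 (0.9004), the adhesion receptor Adgrg2 (0.896), the guanine deaminase Gda (0.885) and Unc13b (0.881) followed.

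These genes differed in the size of the step. Mtfr1l averaged 446 ± 17.9 in young, 617 ± 57.8 in 32-week wild type, 602 ± 4.16 in mutator and 600.0 ± 20.3 in old HSC. Its young arrays also lay below all older HSC arrays, but by far less than those of Ctse. Nupr1 averaged 55.0 ± 11.6, 315 ± 88.9, 262 ± 62.0 and 523 ± 50.1 in the same order, so its old arrays stood above the 32-week ones, which those of Ctse did not. Gda averaged 391 ± 80.3, 1356 ± 401, 1410 ± 530 and 1791 ± 341.

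Over all 16 arrays the most like genes were Nupr1 (0.910), the metallothionein Mt1 (0.898), Adgrg2 (0.896), Unc13b (0.893), Clu, which encodes the chaperone clusterin (0.887), the desmosome gene Pkp2 (0.886), Hoxb6 (0.882), Serpinb8 (0.871), Elmo3 (0.870) and the membrane metalloproteinase Mmp14 (0.865). In CLP, Nupr1 averaged 17.1 in Ly6D+ and 10.6 in Ly6D- cells, below young HSC, where Ctse was at or above the young level. Mtfr1l and Gda averaged 323 and 24.0 in Ly6D+ CLP and 275 and 53.2 in Ly6D- CLP.

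**Figure D5:**
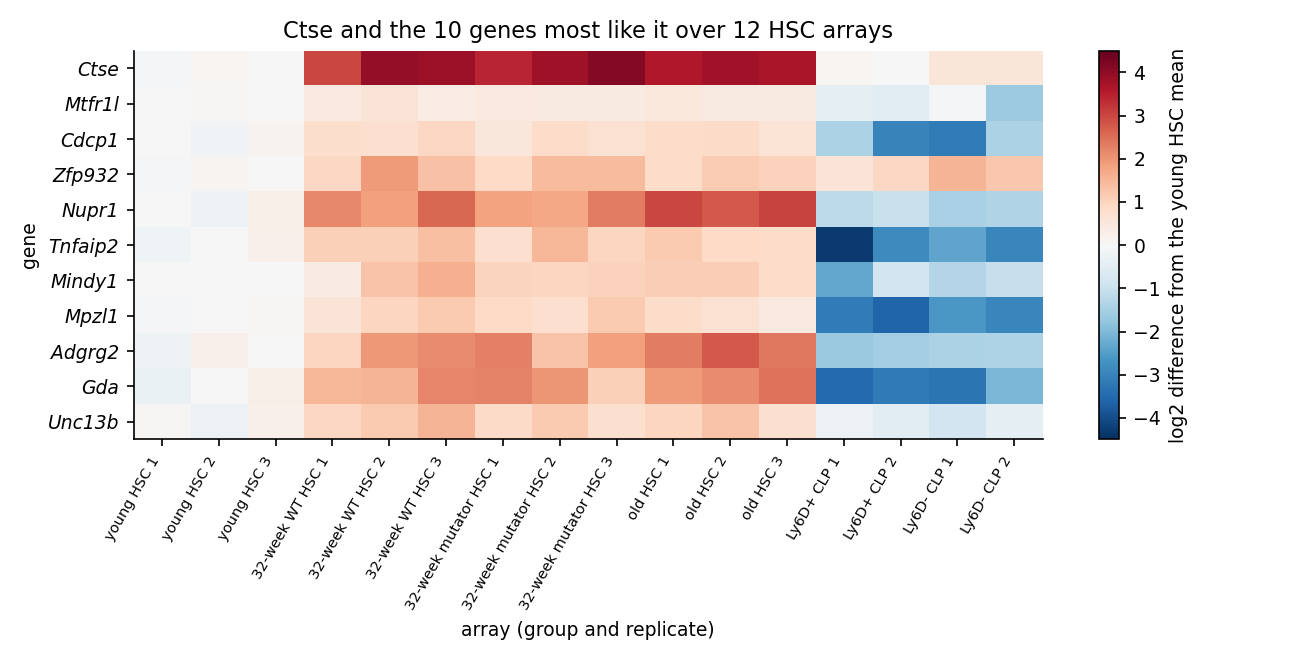
Log2 difference from the young mean on each of the 16 arrays for Ctse and the 10 genes with the highest Pearson r with it over the 12 HSC arrays. Ctse has the strongest step in 32-week and old HSC, and several of these genes fall below the young mean in CLP, where Ctse does not.

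Ctse lies on mouse chromosome 1, and its neighbours there, taken from the RefSeq annotation of GRCm38.p6 for names and order alone, had no change of its size. The 4 nearest tested genes on either side were Rassf5, Ikbke, Srgap2 and Fam72a and, on the other side, Rab7b, Slc41a1, Rab29 and Nucks1. Rab7b, a small GTPase of late endosomes and the adjacent gene, differed from young by -0.05 in old, 0.17 in 32-week wild type and 0.02 in mutator HSC. In old against young HSC limma called 0 of the 8, with 1 at an unadjusted p under 0.05, where 1.33% of all genes were called. In 32-week wild type 2 of the 8 were called, near the 24.2% of all genes, and in mutator 1 of 8, under the 17.2% of all genes. In wild type Srgap2 rose by 0.80 (adjusted p = 0.0100) and Nucks1, a nuclear DNA-binding protein, fell by 1.43 (adjusted p = 0.00378), and both calls were lost with the mean of all probe sets of the gene. In mutator HSC Nucks1 fell by 0.94 (adjusted p = 0.0372), a call lost in 5 of 6 fits without an array (all but that without young replicate 1), and Srgap2 differed by 0.46 (adjusted p = 0.116).

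Markers of other marrow cells were set beside its levels. The summed log2 level of 14 macrophage and dendritic cell markers was 84.5 to 90.1 on young arrays, 80.5 to 81.8 on 32-week wild type, 81.2 to 84.5 on mutator and 77.5 to 80.5 on old arrays, so it was lower where Ctse was higher in HSC. The sum was 93.1 to 95.9 in CLP, but only 6 of its 14 members were above young HSC in each fraction, with a median difference of -0.13. The list holds Flt3, also a CLP marker, which averaged 162 in young HSC, 4308 in Ly6D+ and 5013 in Ly6D- CLP. The sum of 10 erythroid markers was 70.0 to 74.0 in young, 67.4 to 69.1 in 32-week wild type, 66.6 to 72.0 in mutator and 64.8 to 67.8 in old HSC. The sum of 8 megakaryocyte markers was 61.9 to 63.2 in young and 68.3 to 71.3 in old HSC, but 60.9 to 65.9 in 32-week wild type and 60.4 to 63.5 in mutator HSC, which overlap the young arrays. The sum of 10 HSC markers was 100.3 to 101.8 in young, 92.2 to 97.9 in 32-week wild type, 97.3 to 97.6 in mutator and 105.4 to 106.9 in old HSC. By summed level, none of the 10 marker lists, which also cover neutrophils, B, T and NK cells, mast cells and stroma, separated the 3 older groups from young HSC in the direction of Ctse. Sums can hide single members. Of 7 tested megakaryocyte markers, 2 were called higher and 0 lower in old HSC, and 1 higher and 1 lower in each 32-week group. Of all genes 1.07% were called higher in old, 6.51% in 32-week wild type and 4.51% in mutator HSC. Which cells gave the Ctse signal was not tested.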

How the data were processed

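The authors deposited summarised probe set values for 16 arrays on a linear scale (unit: intensity). Per the labels' protocols, RNA was extracted with a microRNeasy kit. How the values were summarised, background-corrected and normalized is not given in the sources used here. Array medians were 24.6 to 29.8 and means 211 to 264. The number of arrays limits the precision, and p-values measure the spread between these samples.

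Values were used as log2(intensity + 16). Of the probe sets, 34958 have 1 gene symbol, 932 several and 9211 none. Each gene was represented by its brightest probe set on the arrays fitted. It was tested if that probe set exceeded the 40th percentile on 3 or more of 12 HSC arrays (13493 genes), or on 2 or more of 16 arrays (14344 genes). Group means were fitted with limma 3.58.1 (R 4.3.3, lmFit and eBayes). HSC comparisons used the 12-array fit and those with CLP all 16, with Benjamini-Hochberg adjustment over all genes tested and calls at an adjusted p under 0.05. The procedure was tested on simulated data.

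The gene, the lists and the rule for named genes were chosen with earlier results of these data known. The rule names all tested aspartic proteases and cathepsins, up to 4 called members of other lists by p, the 8 aged HSC genes of largest change, the 10 most like genes, and 4 neighbours on each side. Replicate numbers were not treated as pairs. The correlations of same-numbered arrays' deviations ran from -0.06 to 0.51, with the highest for replicates 1 (0.51) and 2 (0.42) of old and young HSC. Whether arrays of the same number were handled together was not tested. Alternatives covered normalization, pseudocount, filter, choice of probe set, eBayes settings, a replicate block, fits of only the groups compared and leaving out each array. Counting young replicates 2 and 3 as 1, leaving out both 32-week arrays with high hybridisation controls and scaling to 3′ actin were added after the data were seen.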

Additional observations from a re-analysis of the deposited data

How the results depend on the processing

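The mean 32-week and old differences of Ctse from young HSC kept their direction under every alternative that used probe set 1418989_at. Leaving out each array gave 3.63 to 3.73 for old, 3.46 to 3.93 for 32-week wild type and 3.62 to 3.97 for mutator. A pseudocount of 64 gave 3.52 for old. The second probe set alone gave -0.30, -0.29 and -0.36, from values below the 40th percentile on every HSC array, and the mean of both 1.69, 1.67 and 1.71. Scaling to the labelling controls gave 3.52, 0.50 and 0.57, and on that scale replicate 1 of each 32-week group lay below all young arrays. Scaling to 3′ actin gave 3.87 for old.

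Against young HSC, Ctse in Ly6D+ CLP was 0.16 after quantile normalization, 1.43 with the second probe set, 0.74 with the mean of both, -2.81 relative to the labelling controls and -0.22 relative to 3′ actin (0.01 to 0.10 without each array). In Ly6D- CLP it was 0.65, 0.88, 0.71, -2.70 and 0.20 in that order, and 0.49 with a pseudocount of 64 (0.52 to 0.59 without each array). Ctse in mutator against 32-week wild type ranged from -0.14 to 0.34 without each array and was -0.070 with the second probe set, which was below that percentile on those arrays. In Ly6D+ against Ly6D- CLP it was 0.55 with the second probe set, 0.029 with the mean of both and -0.54 to -0.45 without each array.

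Counts of called genes moved with the samples and the probe sets used. Old against young gave 993 in a fit of those groups alone, 94 with young replicates 2 and 3 as 1, and 89 to 117 without each array, against 180. Counting every probe set gave 5569, 4191, 5321, 5401 and 659 for 32-week wild type, mutator, Ly6D+ CLP and Ly6D- CLP against young and for Ly6D+ against Ly6D- CLP. Young replicates 2 and 3 as 1 gave 2055 in wild type and 1160 in mutator against young; leaving out each array gave 2063 to 4173 and 1153 to 2548. Mutator against wild type gave 1 without the high-control arrays and 0 to 220 without each array. The CLP counts without each array were 2566 to 2841 (Ly6D+), 2339 to 3101 (Ly6D-) and 307 to 752 (between fractions); limma on the CLP arrays alone gave 0, with 1005 at an unadjusted p under 0.05.

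Calls among the protease, inhibitor, lysosome and class II lists in old against young (0) became 1 under quantile normalization, a pseudocount of 64 and the mean of probe sets (Serpinb6a), and 1 with every probe set (Ctsc). They became 7 in the fit of those groups alone (Cstb, Ctsl, Ctso, Ctss, Ctsw, Lamp2 and Serpinb6a) and were 0 to 0 without each array. In 32-week wild type the 23 calls became 14 in that fit and 11 with young replicates 2 and 3 as 1 (12 to 24 without each array), and in mutator 15 became 7 with those replicates as 1 (7 to 18). The aspartic protease, cathepsin, inhibitor, lysosome and class II lists held 7, 12, 6, 28 and 10 tested genes besides Ctse in the HSC fit. Of all genes 24.2% were called in wild type and 17.2% in mutator. Their counts fell too, from 3269 to 2210 and 2055 in wild type and from 2315 to 1160 in mutator. Mutator against wild type gave 0 to 1 without each array, Ly6D+ CLP 21 to 23 and Ly6D- CLP 15 to 21. Over all genes the same fits gave 0 to 220, 2566 to 2841 and 2339 to 3101. With all arrays 24.3% and 24.4% of all genes were called in Ly6D+ and Ly6D- CLP, and 2.68% between the fractions. Between fractions the 2 calls became 1 with trend and robust settings and 0 on those arrays alone (2 to 2 without each array). Laptm5 in Ly6D+ CLP turned to 0.10 with the mean of probe sets. In the 12-array fit all HSC groups share an estimate of the spread, while a fit of the groups compared takes it from those groups alone. The causes of these changes were not tested.

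With the replicate number as a block, the Ctse difference from young was 0.12 in Ly6D+ and 0.62 in Ly6D- CLP, and mutator against 32-week wild type stayed at 0.16 (adjusted p = 0.873). Since it was not tested whether the numbers mark samples handled together, this block is a check only. The precision of Ctse is limited by 2 or 3 arrays per group, by the unstated normalization and by the differences in labelling controls, actin 3′ to 5′ ratio and sex-linked transcripts between arrays.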
